A study of Homo sapiens with 6 samples.

Results

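The genes described here encode parts of the spliceosome and proteins that steer it: 86 of the 14034 genes in a count table from the human hepatocellular carcinoma line JHH-4. They were taken by symbol, as every gene whose symbol starts with SRSF, HNRNP, SF3A, SF3B, SNRP, PRPF or U2AF, or with LSM followed by a digit. By name they fell into 12 SR proteins, 23 heterogeneous nuclear ribonucleoproteins (hnRNPs), 13 genes of the U2 snRNP and U2AF, 12 SNRP proteins, 13 PRPF factors and 13 LSM proteins. This set of names was drawn up with earlier results of these data known. All 86 are annotated as protein-coding in GENCODE 29. RNA was sequenced from 3 control libraries and from 3 libraries of JHH-4 cells made to overexpress miR-885-5p with a plasmid of its primary transcript. The labels give the genotype of the control cells as WT and do not say whether they received an empty plasmid, so the microRNA and the plasmid that carries it cannot be told apart. Within a group the 3 libraries are technical replicates of 1 cell line in the submitters' own words, so the p-values speak only to the spread between such libraries. The microRNA itself and its host gene were not analysed here, so its overexpression was not checked. The series title places the study in the control of the cell cycle.

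Introns are removed by the spliceosome, which assembles on each intron from small nuclear ribonucleoproteins (snRNPs), particles of a small nuclear RNA and its bound proteins. U1 marks the start of the intron, U2 with U2AF its branch point and end, and the tri-snRNP of U4, U5 and U6 brings in the catalytic core. SR proteins, named for their serine and arginine repeats, mostly bind exons and recruit this machinery, while hnRNPs coat nascent transcripts and often keep it away from a site. The balance of the SR proteins and hnRNPs sets much of alternative splicing. Many of these genes tune their own messages by splicing in an exon that leads to decay, and liver tumours are known to shift the levels of several of them.

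The microRNA acts mainly by pairing its seed, bases 2 to 8, with sites in the 3′ UTR of messages. Its mature RefSeq sequence lies at chr3:10394531-10394552 on the minus strand (GRCh38.p14), with the seed in capitals.
hsa-miR-885-5p: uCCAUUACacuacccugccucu
A full match to the seed is GTAATGG, called 7mer-m8, and GTAATGGA, called 8mer, adds an A after it. Below are the 2 members with an 8mer, and PRPF38A, the member with the largest fall, which has a 7mer-m8. Site and flanks come from the 3′ UTRs of GENCODE 29 on GRCh38, with the match in capitals.
SRSF6: aatacttttaaGTAATGGAacttttttcaa
HNRNPA3: agaagtgttctGTAATGGAttcagatgttt
PRPF38A: acaatgtttaaGTAATGGtggaatctgtc
The matches lie at chr20:43461815-43461822, chr2:177223773-177223780 and chr1:52417703-52417709, all on the plus strand.

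Each library held 46382314 to 56409821 counts. Principal component 1, with 74.7% of the variance, parted control from miR-885-5p libraries, and component 2, with 9.23%, parted control library 3 from control library 2. Of 11 hepatocyte markers, 4 were among the genes tested (FGA, FGB, FGG and SERPINA1), and ALB, APOB, APOA1, HNF4A, TTR, AFP and TF were not analysed here. In CPM, the counts scaled to a common library size with edgeR's TMM factors, those 4 summed to 41.1 to 44.8 in control libraries and 17.1 to 18.5 in miR-885-5p libraries. The epithelial genes CLDN1, KRT8 and KRT18 summed to 2373 to 2452 CPM in control and 1955 to 2037 in miR-885-5p libraries, while CDH1 and EPCAM were not analysed here. Mesenchymal VIM, FN1, SNAI2 and THY1 summed to 784 to 872 and to 1122 to 1148 CPM. Of the 4 leukocyte markers CD14 and CD68 were tested and summed to 118 to 139 CPM in control and 125 to 128 in miR-885-5p libraries, and PTPRC and LYZ were not analysed here. Of the 3 endothelial markers PECAM1 was tested and had at most 1.70 CPM, and CDH5 and VWF were not analysed here. Whether these shifts bear on the splicing genes was not tested, and fewer cells of a type and less RNA per cell cannot be told apart in bulk libraries.

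Splicing genes were mostly lower in the miR-885-5p libraries. Of the 86, 52 (60.5%) fell and 5 (5.81%) rose with edgeR's quasi-likelihood test at a Benjamini-Hochberg adjusted p under 0.05, and 29 did not pass the test. Over all 14034 genes, 26.5% fell and 26.3% rose, 52.9% in all. Since the set was chosen with earlier results known, its share against that of all genes is a description. The median log2 fold change (miR-885-5p over control) was -0.21 for the members and -0.00061 over all genes, and 71 of 86 members had a value below 0. Changes were small: 5 members fell by at least 1.5-fold (PRPF38A, HNRNPAB, HNRNPR, HNRNPH1 and LSM12), against 6.89% of all genes, and none changed by 2-fold or more. The median absolute log2 fold change of called members was 0.32, against 0.39 for all called genes. The 3 libraries of each group did not overlap for 52 members in the lower direction and 5 in the higher one, against 30.3% and 30.2% of all genes. Most members are well expressed, and 80 of them averaged at least 20 CPM. Of those 80, 51 (63.8%) fell and 5 rose, against 32.9% and 27.6% of the 7947 genes at that level (60.5% in all). Tested against a 1.2-fold change rather than 0, 22 members were called lower and none higher, against 11.6% of all genes lower and 11.9% higher. Without control library 2, and equally without miR-885-5p library 1, only 3 members were called higher.

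**Figure D1:**
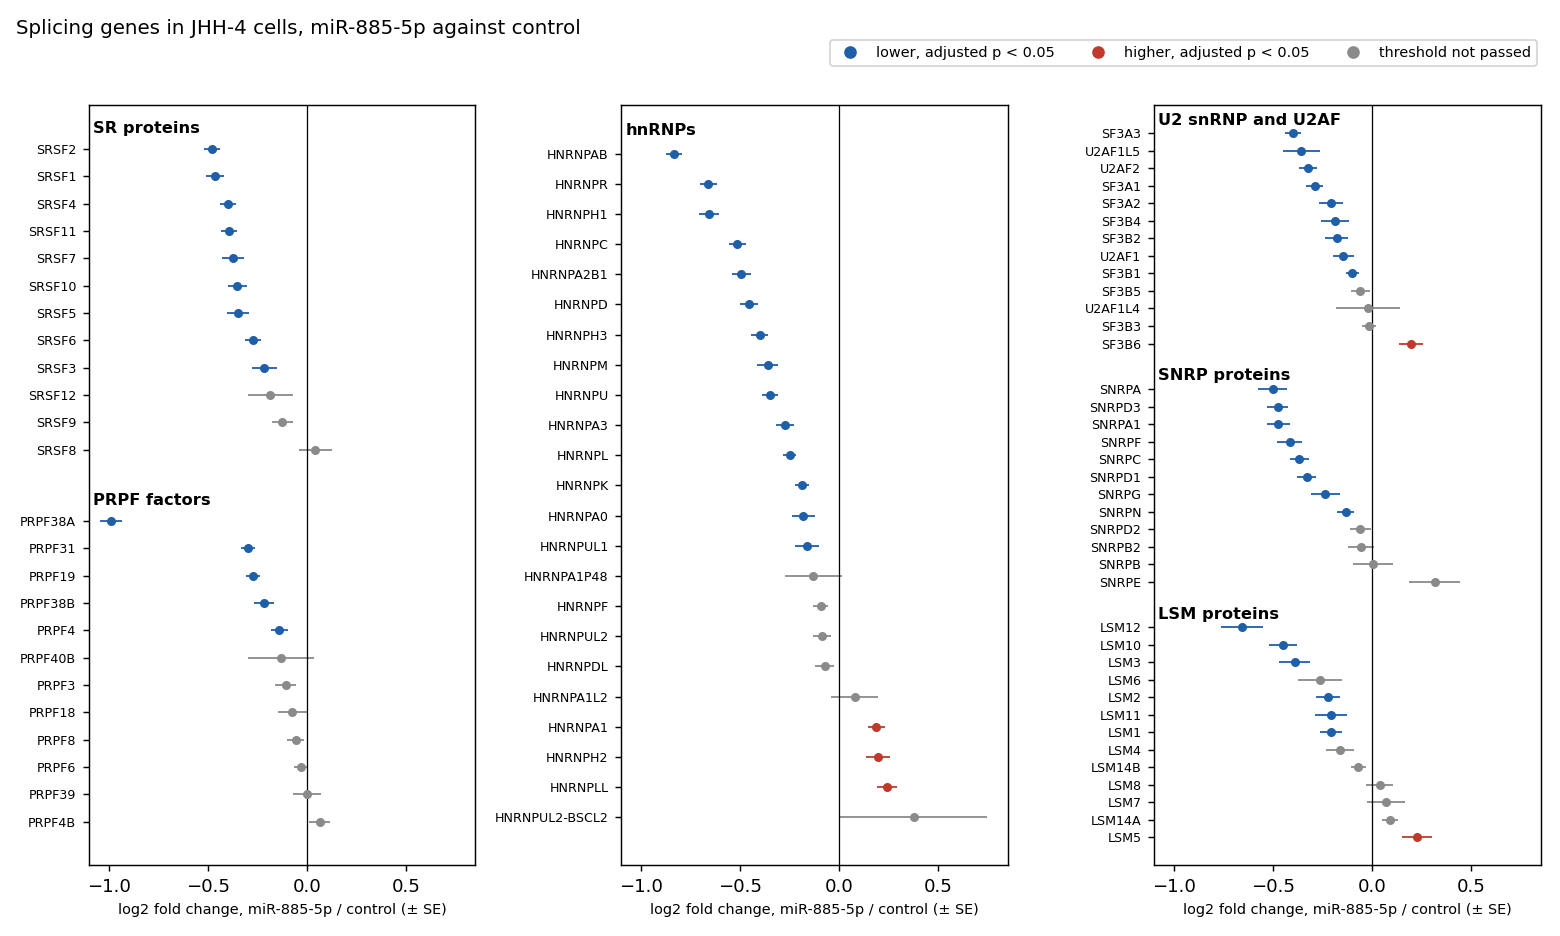
Log2 fold change of 85 of the splicing genes, miR-885-5p over control, with its standard error as a bar, grouped by class and coloured by the edgeR call at an adjusted p of 0.05. Most points lie left of 0, 51 of them called lower (blue), and the 5 called higher (red) lie between 0.19 and 0.24.

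**Figure D2:**
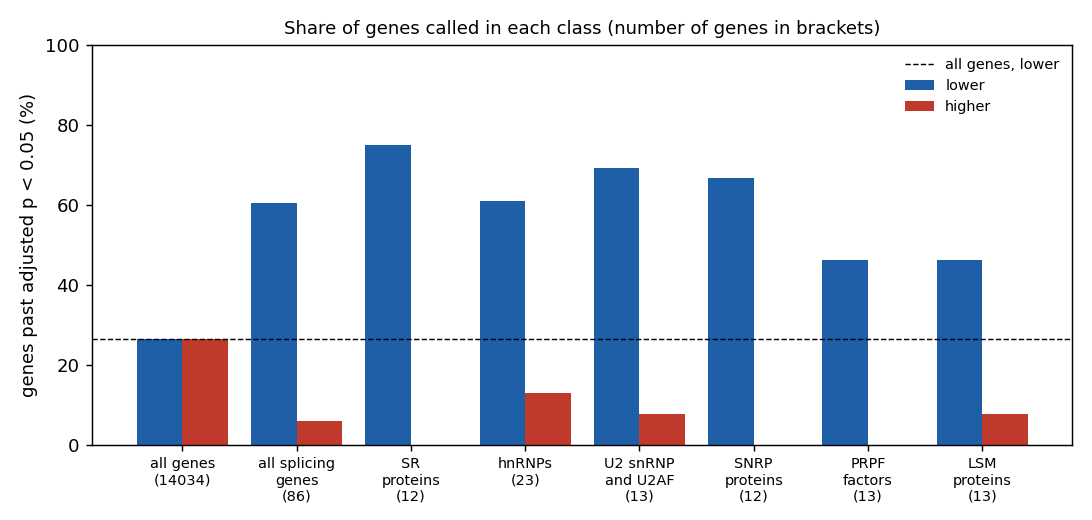
Percent of genes called lower (blue) and higher (red) among all 14034 genes, the 86 splicing genes and each class, with the number of genes in brackets. The dashed line marks the 26.5% of all genes called lower, and all 6 classes lie above it, from 46.2% to 75.0%.

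SR proteins had the lowest class median, at -0.35: 9 of the 12 fell, 0 rose and 3 did not pass the test. SRSF2, which binds exonic enhancers and is also known as SC35, had 359.7, 336 and 355 CPM in the 3 control libraries and 252, 259 and 244 in the 3 with miR-885-5p. Every control library lay above every miR-885-5p library. Its log2 change was -0.48 ± 0.04 (SE), with an edgeR adjusted p of 9.91e-06. SRSF1, the first SR protein shown to switch splice sites, had 303, 275 and 306 CPM in control and 215, 211 and 216 in miR-885-5p libraries. The groups were again apart, with a log2 change of -0.46 ± 0.05 (SE) and an edgeR adjusted p of 2.55e-05. SRSF4, which has one of the longest arginine-serine domains of the family, went from 82.6, 82.9 and 86.3 to 63.3, 63.7 and 64.0 CPM. Its miR-885-5p libraries were nearly equal and its log2 change was -0.40 ± 0.04 (SE), with an edgeR adjusted p of 2.88e-05.

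SRSF11, a relative that binds with U2AF, went from 113 ± 2.74 to 85.8 ± 1.94 CPM (mean ± SD, n = 3), with a log2 fold change of -0.39 (SE 0.04). SRSF7, set apart by a zinc knuckle beside its RNA-binding domain, went from 129 ± 7.87 to 99.9 ± 5.54 CPM (log2 -0.37, SE 0.06). SRSF10, which represses splicing when it loses its phosphates during heat shock, went from 118 ± 5.25 to 92.4 ± 3.75 CPM (log2 -0.35, SE 0.05). In all 3 of these genes the groups did not overlap. SRSF5, an enhancer-binding member, went from 93.1 ± 2.58 to 73.2 ± 5.51 CPM (log2 -0.35, SE 0.06). SRSF6, another enhancer-binding member, went from 172 ± 6.89 to 143 ± 3.40 CPM (log2 -0.27, SE 0.04). SRSF3, the smallest SR protein and an adaptor for mRNA export, had 267, 263 and 311 CPM in control and 253, 241 and 232 in miR-885-5p libraries. Its log2 fold change was -0.21 (adjusted p = 0.018, edgeR), which was no longer called without miR-885-5p library 2 (-0.21) or 3 (-0.18).

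The 3 SR genes that did not pass the test were SRSF9, SRSF12 and SRSF8. SRSF9, close in sequence to SRSF1, had 125, 114 and 133 CPM in control and 113, 113 and 114 in miR-885-5p libraries, which overlapped, with a log2 fold change of -0.12 (SE 0.05). It was called without control library 2, at -0.18. SRSF12, a relative of SRSF10 and the least expressed of the class, had 7.01 ± 0.702 and 6.17 ± 0.244 CPM (log2 -0.18, SE 0.11). SRSF8, an expressed copy related to SRSF2, had 44.0 ± 3.68 and 45.3 ± 4.33 CPM (log2 0.04, SE 0.08). Against a 1.2-fold change, 5 SR genes were called lower: SRSF1, SRSF2, SRSF4, SRSF7 and SRSF11.

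Of the 23 hnRNP genes, 14 fell, 3 rose and 6 did not pass the test, with a median log2 fold change of -0.19. HNRNPAB, which binds AU-rich RNA, had the largest fall of the class. It stood at 412, 401 and 390.2 CPM in the control libraries and at 222, 218 and 235 in those with miR-885-5p. The lowest control library was well above the highest miR-885-5p library, and the log2 change was -0.83 ± 0.04 (SE), with an edgeR adjusted p of 3.33e-07. Its relative HNRNPD, also known as AUF1 and a binder of AU-rich elements that mark messages for decay, went from 422, 410.5 and 394 to 299, 283 and 313 CPM (log2 -0.45, SE 0.05). HNRNPDL, the third of these relatives, had 293, 294 and 268 and 271, 257 and 283 CPM, with overlapping groups and a log2 fold change of -0.07 (SE 0.05) that did not pass the test. Without control library 3 its value was -0.12 and was called.

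The A group held changes in both directions. HNRNPA2B1, an abundant packaging protein of nascent RNA, had 1324, 1277 and 1254 CPM in control and 922, 853 and 963 in miR-885-5p libraries. All control libraries were above all miR-885-5p libraries, and the log2 change was -0.49 ± 0.05 (SE), with an edgeR adjusted p of 2.50e-05. HNRNPA1, the classic opponent of SRSF1 in splice site choice, had 1596, 1539.9 and 1543 CPM in control and 1759, 1693 and 1874 in miR-885-5p libraries. Here the order was the other way, and the log2 change was 0.19 ± 0.04 (SE), with an edgeR adjusted p of 0.00554. HNRNPA3 went from 543 ± 18.9 to 449 ± 20.3 CPM (log2 -0.27, SE 0.04). HNRNPA0 went from 227 ± 19.6 to 201 ± 7.27 CPM (log2 -0.18, SE 0.06), a call that was lost when control library 1 (-0.20), miR-885-5p library 1 (-0.19) or miR-885-5p library 3 (-0.15) was left out. The copies HNRNPA1L2 (log2 0.08, SE 0.12) and HNRNPA1P48 (log2 -0.13, SE 0.14) did not pass the test. These 2 are close copies of HNRNPA1, so reads may be split between the 3 genes and their values are uncertain. HNRNPA1P48 was called without control library 3, at -0.29.

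The H and F proteins, which bind runs of G, had unequal fold changes. HNRNPH1 had 392, 422 and 371 CPM in control and 250.0, 243 and 259 in miR-885-5p libraries, far apart, with a log2 change of -0.66 ± 0.05 (SE) and an edgeR adjusted p of 4.92e-06. HNRNPH3 went from 222 ± 4.45 to 168 ± 8.14 CPM (log2 -0.40, SE 0.04). HNRNPF had 405, 387 and 411 and 379, 383 and 365 CPM (log2 -0.09, SE 0.04). Its groups did not overlap, but it did not pass the test, and it was called without control library 2, at -0.12. HNRNPH2, an X-linked copy whose exons are also part of a readthrough model in the table, so that its reads may be split, had 49.4, 46.0 and 48.1 CPM in control and 51.2, 59.1 and 54.0 in miR-885-5p libraries. It was higher in every miR-885-5p library, with a log2 fold change of 0.20 (adjusted p = 0.0224, edgeR), but the call was lost when control library 2 (0.17) or its miR-885-5p counterpart (0.14) was left out.

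HNRNPR, a relative of SYNCRIP, went from 272, 285 and 267 to 176, 166 and 179 CPM, with a log2 change of -0.66 ± 0.04 (SE) and an edgeR adjusted p of 1.64e-06. HNRNPC, which binds uridine tracts and keeps Alu elements from being spliced in as exons, went from 729, 705 and 673 to 497, 476 and 501 CPM (log2 -0.52, SE 0.04). Groups were apart in both genes. HNRNPU, a nuclear scaffold protein, went from 1081 ± 38.3 to 847 ± 25.2 CPM (log2 -0.35, SE 0.04). Its relatives had smaller values: HNRNPUL1 had a log2 change of -0.16 ± 0.06 (SE) and an edgeR adjusted p of 0.045, and HNRNPUL2 had -0.09 (SE 0.05) and did not pass. The HNRNPUL1 call was lost when any library but control library 3 was left out, with values from -0.17 to -0.10. HNRNPUL2 was called without control library 3, at -0.12. HNRNPUL2-BSCL2, a readthrough model that shares exons with HNRNPUL2, ranged from 8.61 to 34.3 CPM among control libraries alone and did not pass. It was called higher without control library 1, at 0.92.

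HNRNPM, a splicing repressor, had 403, 375 and 435 CPM in control and 321, 317 and 306 in miR-885-5p libraries, without overlap (log2 -0.36, SE 0.05). HNRNPK, which binds C-rich RNA, went from 709 ± 13.4 to 622 ± 6.80 CPM (log2 -0.19, SE 0.03). HNRNPL, which binds CA repeats, had 383, 377 and 386 CPM in control and 320.4, 325 and 319 in miR-885-5p libraries. It was lower in each of the latter, at a log2 change of -0.25 ± 0.03 (SE) and an edgeR adjusted p of 0.000154. Its relative HNRNPLL, known from splicing of CD45 in lymphocytes, had 47.8, 47.9 and 45.4 and 55.8, 57.5 and 53.4 CPM and was higher in each (log2 0.24, SE 0.05, edgeR adjusted p 0.00267). In limma on log2 of the deposited FPKM (fragments scaled by message length and library size) plus 1, 9 hnRNP genes fell rather than 14, and HNRNPK (-0.06), HNRNPL (-0.14) and HNRNPA3 (-0.16) were among those that were not called.

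**Figure D3:**
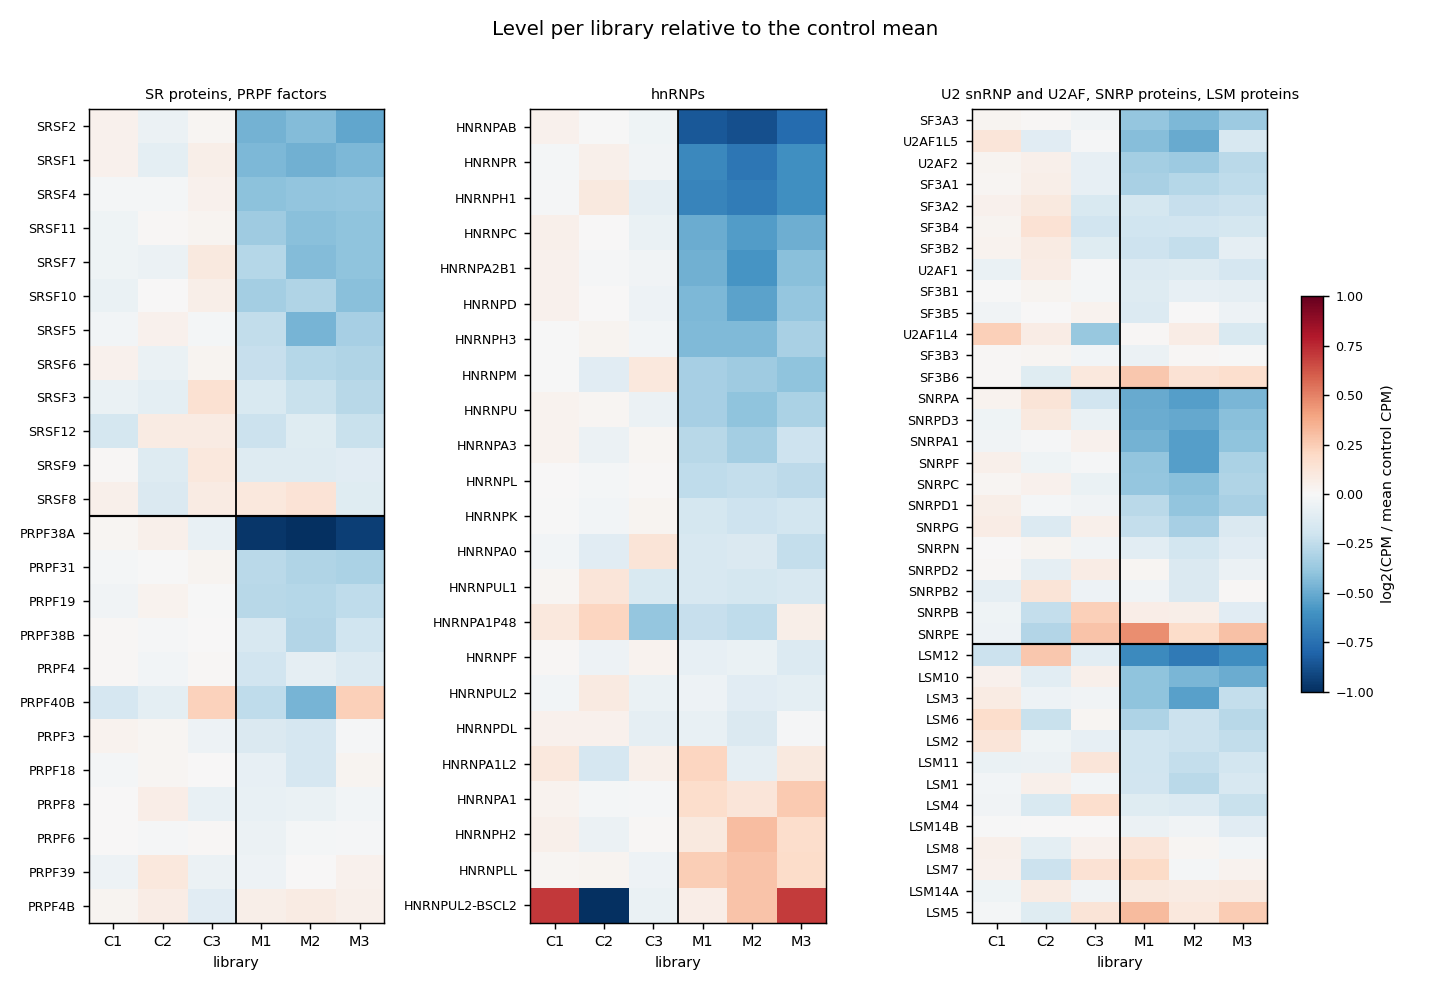
Level of 85 of the splicing genes in each library, as the log2 of its CPM over the mean control CPM, for control libraries C1 to C3 and miR-885-5p libraries M1 to M3. Colours run from -1 (blue) to 1 (red), values beyond are drawn at the limit, and genes within a class are ordered by their fold change, so that PRPF38A and HNRNPAB show the darkest blue in all 3 miR-885-5p libraries.

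Related genes were also set against each other within each library. Ratios of 11 pairs of related genes were compared by an exact two-sided permutation test over the 6 libraries, whose smallest possible p is 0.10. This comparison was not among the planned tests. In each pair the gene with the higher log2 fold change was put on top. The ratios therefore restate fold changes given above, and their common direction is no further support for them. HNRNPA1 over HNRNPA2B1 was 1.21, 1.21 and 1.23 in control and 1.91, 1.99 and 1.95 in miR-885-5p libraries. HNRNPH2 over HNRNPH1 was 0.126, 0.109 and 0.130 against 0.205, 0.243 and 0.209, and HNRNPF over HNRNPH1 was 1.03, 0.916 and 1.11 against 1.51, 1.57 and 1.41. In each of these pairs every miR-885-5p ratio exceeded every control ratio. PRPF38B over PRPF38A was 0.921, 0.882 and 0.973 against 1.62, 1.56 and 1.54. HNRNPLL over HNRNPL was 0.125, 0.127 and 0.118 against 0.174, 0.177 and 0.167. HNRNPDL over HNRNPD was 0.694, 0.715 and 0.681 against 0.907, 0.911 and 0.904. The groups were apart here too, and also for SRSF9 over SRSF1, PRPF4B over PRPF4, HNRNPUL1 over HNRNPU and LSM14A over LSM14B. Each of these 10 pairs reached the exact permutation p of 0.10 (0.11 adjusted over the 11 pairs). SNRPB over SNRPN overlapped between groups (exact permutation p = 0.50, also when adjusted).

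**Figure D4:**
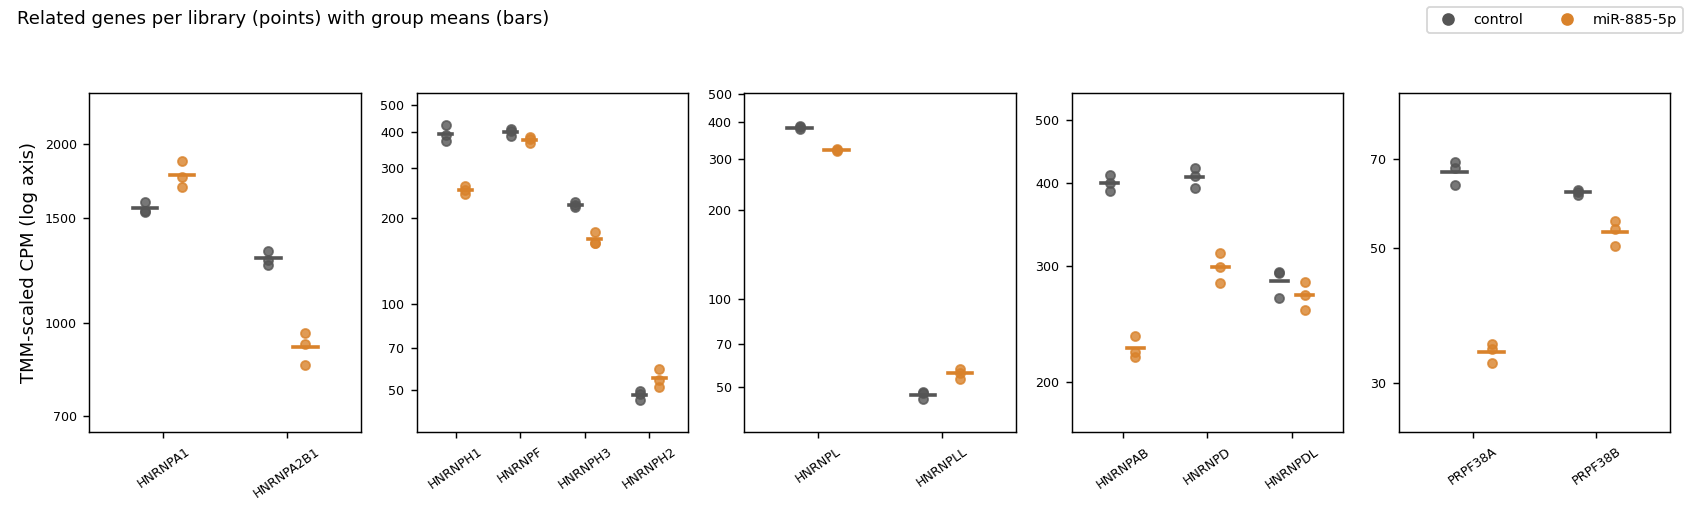
CPM on log axes of related splicing genes in 3 control (grey) and 3 miR-885-5p (orange) libraries, with bars at the group means. Each panel has its own scale. In the first panel HNRNPA1 rises from a mean of 1559.7 to 1775 CPM while HNRNPA2B1 falls from 1285 to 912.

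Among the 13 genes of the U2 snRNP and U2AF, 9 (69.2%) fell, 1 (7.69%) rose and 3 did not pass, with a median of -0.18. The shares over all genes were 26.5% and 26.3%. SF3A3, a subunit of the SF3A trimer that joins U2 to the branch site, had 171, 168 and 163 CPM in control and 128, 123 and 130.4 in miR-885-5p libraries. The groups were apart, at a log2 change of -0.40 ± 0.04 (SE) and an edgeR adjusted p of 2.39e-05. Its partners SF3A1 (log2 -0.29, SE 0.04) and SF3A2 (log2 -0.21, SE 0.06) also fell, though SF3A2 did not when control library 1 (-0.18) or the second of the miR-885-5p libraries (-0.19) was left out. U2AF2, which reads the polypyrimidine tract, went from 408, 415 and 377 to 317, 311 and 332 CPM, again without overlap (log2 -0.32, SE 0.05, edgeR adjusted p 0.000252). U2AF1, its small partner that reads the AG at the intron end, is annotated in a pair of near-identical copies, so reads could be split between them and both values are uncertain. U2AF1 had a log2 fold change of -0.15 (SE 0.05) and U2AF1L5 of -0.36 (SE 0.09). The U2AF1 call was lost without control library 2 (-0.11), or without any one miR-885-5p library (-0.15 to -0.13). U2AF1L4, a related gene at 6.07 ± 1.27 CPM, stayed near 0 (log2 -0.02, SE 0.16).

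Of the 6 genes with an SF3B name, from the complex that holds the branch site, 3 fell and 1 rose. Over all genes 26.5% fell and 26.3% rose. SF3B1 had 260.4, 266 and 257 CPM in control and 239, 247 and 245 in miR-885-5p libraries, apart but close, with a log2 change of -0.10 ± 0.03 (SE) and an edgeR adjusted p of 0.0348. SF3B2 (-0.18, SE 0.06) and SF3B4 (-0.19, SE 0.07) were called lower though their groups overlapped. These 3 calls depended on single libraries: SF3B1 lost it without any library but control library 3 (-0.11 to -0.08), SF3B4 likewise (-0.19 to -0.11), and SF3B2 without library 1 or 2 of either group (-0.16 to -0.13). SF3B3 (-0.01, SE 0.04) and SF3B5 (-0.06, SE 0.05) did not pass. SF3B6 had 68.4, 62.4 and 72.9 CPM in control and 81.9, 75.1 and 76.4 in miR-885-5p libraries. It was higher in each of the latter (log2 0.20, SE 0.06, edgeR adjusted p 0.0227), a call lost when control library 1 (0.20), control library 2 (0.14) or miR-885-5p library 1 (0.16) was left out.

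Of the 12 SNRP genes, 8 (66.7%) fell, 0 rose and 4 did not pass, with a median of -0.28. The shares over all genes were 26.5% and 26.3%. SNRPA, a protein of the U1 snRNP that binds a stem of its RNA, had 142, 151 and 121 CPM in control and 97.6, 94.1 and 101 in miR-885-5p libraries. The groups were apart, at a log2 change of -0.50 ± 0.07 (SE) and an edgeR adjusted p of 0.000278. SNRPC, the U1 protein that steadies pairing with the start of the intron, went from 95.8 ± 3.62 to 74.3 ± 3.22 CPM (log2 -0.37, SE 0.05). SNRPA1, a protein of the U2 snRNP, had 39.3, 39.8 and 41.5 and 28.9, 27.5 and 30.5 CPM, without overlap (log2 -0.47, SE 0.06, edgeR adjusted p 9.08e-05). Its binding partner SNRPB2 had 64.9 ± 5.24 and 62.5 ± 3.43 CPM (log2 -0.05, SE 0.07) and did not pass.

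The Sm proteins form the ring that holds each of these small nuclear RNAs except U6. Of the 8 Sm genes 5 (62.5%) fell, beside 26.5% of all genes. SNRPD3 had 101, 111 and 99.4 CPM in control and 73.7, 72.7 and 77.6 in miR-885-5p libraries, all lower (log2 -0.48, SE 0.05, edgeR adjusted p 4.78e-05). SNRPF went from 60.8 ± 1.94 to 45.6 ± 3.69 CPM (log2 -0.42, SE 0.06), and SNRPD1 from 78.7 ± 2.84 to 62.7 ± 2.71 (log2 -0.33, SE 0.05). Of the ring members with smaller changes, SNRPG fell (log2 -0.24, SE 0.07), but not when control library 1 (-0.20), miR-885-5p library 1 (-0.23) or miR-885-5p library 2 (-0.19) was left out. SNRPB, with 320.4, 280.3 and 391 CPM in control and 346, 344 and 305 in miR-885-5p libraries, did not pass (log2 0.00, SE 0.10), nor did SNRPD2 (log2 -0.06, SE 0.05). SNRPE, with 42.9, 36.2 and 54.0 and 61.3, 50.3 and 54.3 CPM, had the highest value of the class (log2 0.32, SE 0.13) and did not pass (adjusted p = 0.061, edgeR). It was called higher without control library 3, at 0.48, and also with total-count scaling and with the replicate number as a block. SNRPN, the imprinted counterpart of SNRPB whose transcript also covers SNURF, had a log2 fold change of -0.13 (SE 0.04). That call was lost without any library but control library 3 (-0.15 to -0.11).

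Among the 13 PRPF factors, 6 (46.2%) fell, 0 rose and 7 did not pass, with a median of -0.13. The shares over all genes were 26.5% and 26.3%. PRPF38A, which enters just before the spliceosome is activated, had the largest fall of all 86 genes. It had 67.8, 69.3 and 63.5 CPM in control libraries and 34.1, 32.3 and 34.8 in miR-885-5p libraries. The miR-885-5p libraries were close to each other and far below the controls, at a log2 change of -0.99 ± 0.05 (SE) and an edgeR adjusted p of 6.54e-07, a decrease of 49.5%. Its relative PRPF38B had 62.4, 61.1 and 61.8 and 55.4, 50.5 and 53.8 CPM, a smaller fall without overlap (log2 -0.22, SE 0.05, edgeR adjusted p 0.00419). PRPF19, the ubiquitin ligase of the complex that activates the spliceosome, went from 203 ± 5.06 to 168 ± 1.86 CPM (log2 -0.27, SE 0.04). PRPF40B, a protein that works with U1, had 32.4, 34.1 and 42.9 CPM in control and 30.6, 26.4 and 43.1 in miR-885-5p libraries. That spread is wide, and PRPF40B did not pass (log2 -0.13, SE 0.17) unless miR-885-5p library 3 was left out (-0.35).

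Of the 5 tri-snRNP factors, 2 fell. PRPF31, which clamps U4 and whose mutations cause retinitis pigmentosa, went from 158, 160.3 and 164 to 133, 130.4 and 129 CPM. The groups were apart (log2 -0.30, SE 0.04, edgeR adjusted p 8.59e-05). PRPF4 fell by less (log2 -0.14, SE 0.04), and its call was lost when control library 1 (-0.13), miR-885-5p library 1 (-0.11) or miR-885-5p library 3 (-0.13) was left out. PRPF8, the large protein that cradles the catalytic RNA, had 394, 409.8 and 371 CPM in control and 371, 375 and 384 in miR-885-5p libraries. They overlapped, and PRPF8 (log2 -0.06, SE 0.04), PRPF3 (log2 -0.11, SE 0.05) and PRPF6 (log2 -0.03, SE 0.03) did not pass the test. PRPF8 was called without control library 3 (-0.09) and PRPF3 without miR-885-5p library 3 (-0.15). PRPF18, of the exon-joining step (log2 -0.07, SE 0.07), PRPF39, of U1 (log2 0.00, SE 0.07), and the kinase PRPF4B (log2 0.06, SE 0.05) did not pass either.

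Of the 13 LSM genes, 6 (46.2%) fell, 1 (7.69%) rose and 6 did not pass, with a median of -0.21. The shares over all genes were 26.5% and 26.3%. LSM12, an Sm-like protein outside the rings, had 78.3, 109.7 and 84.4 CPM in control and 58.4, 55.6 and 59.0 in miR-885-5p libraries. Control library 2 was highest, yet even the lowest control library exceeded all miR-885-5p libraries (log2 -0.66, SE 0.11, edgeR adjusted p 0.000573). LSM10, of the U7 snRNP that trims histone messages, went from 24.1, 21.8 and 24.3 to 17.8, 17.1 and 16.6 CPM, also apart (log2 -0.45, SE 0.07, edgeR adjusted p 0.000403). Its U7 partner LSM11 fell by less (log2 -0.21, SE 0.08, edgeR adjusted p 0.0489), and the call was lost without any library but control library 2 (-0.24 to -0.14).

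LSM2 to LSM8 form the ring of U6, and 2 of these 7 (28.6%) fell, a share near the 26.5% of all genes. LSM3 had 46.0, 41.8 and 42.2 CPM in control and 32.8, 29.7 and 36.8 in miR-885-5p libraries, all lower (log2 -0.39, SE 0.08, edgeR adjusted p 0.00234). LSM2 went from 43.5 ± 3.24 to 37.3 ± 0.627 CPM (log2 -0.22, SE 0.06), a call lost without control library 1 (-0.16) and in limma on log2 FPKM. LSM5 rose from 45.0, 42.0 and 50.1 to 56.9, 49.2 and 54.4 CPM with overlapping groups (log2 0.23, SE 0.08, edgeR adjusted p 0.0298). Its call was lost when control library 1 (0.21) or 2 (0.17), or miR-885-5p library 1 (0.18) or 3 (0.22), was left out. LSM4 (log2 -0.16, SE 0.07), LSM6 (log2 -0.26, SE 0.11), LSM7 (log2 0.07, SE 0.09) and LSM8 (log2 0.04, SE 0.07) did not pass. Without control library 2, LSM4 (-0.23) and LSM6 (-0.36) were called lower. LSM4 was also called lower with DESeq2, and LSM6 in limma on log2 FPKM. LSM1, which replaces LSM8 in the cytoplasmic ring that starts mRNA decay, fell (log2 -0.21, SE 0.06). The P-body proteins LSM14A (log2 0.09, SE 0.04) and LSM14B (log2 -0.07, SE 0.04) did not pass, though their groups did not overlap in either. LSM14A was called higher without control library 2, at 0.13, and also with total-count scaling and in limma on log2 FPKM.

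Across the functional classes, 9 of 12 SR genes (75.0%), 14 of 23 hnRNP genes (60.9%) and 22 of 41 core snRNP genes (53.7%) fell. The share over all genes was 26.5%, and 26.3% rose. The core snRNP genes were taken by name, as the SNRP, SF3A, SF3B and PRPF genes with LSM2 to LSM8. That takes in 8 PRPF genes not counted among the tri-snRNP factors above, such as PRPF19, and 4 of those 8 fell. Of the 41 core snRNP genes, 2 rose, SF3B6 and LSM5. Their median log2 fold change was -0.16, beside -0.35 for SR genes and -0.19 for hnRNPs. Whether the classes differ was not tested, and each of them includes at least 1 gene on the short arm of chromosome 1. Without control library 1 the core snRNP count dropped to 14, and none was called higher. SR genes made up 0.177, 0.169 and 0.187% of the counts in control libraries and 0.149, 0.146 and 0.142% in miR-885-5p libraries. The hnRNPs made up 1.02, 0.994 and 0.992% and then 0.871, 0.848 and 0.891%. Core snRNP genes made up 0.482, 0.479 and 0.480% and then 0.445, 0.440 and 0.447%. In all 3 the miR-885-5p libraries were lower throughout. All 86 together went from 1.77, 1.73 and 1.75% of the counts to 1.54, 1.51 and 1.56%.

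Levels can be compared between genes on the authors' FPKM values, which are scaled by message length. Mean FPKM in control libraries had a median of 141 over hnRNP genes, 48.6 over SR genes, 47.9 over SNRP genes, 41.0 over U2 and U2AF genes, 26.1 over LSM genes and 22.0 over PRPF genes. Single genes ran from 1.97 FPKM for LSM11 to 597 for HNRNPA2B1. The top of that order changed. HNRNPA2B1 had 618, 571 and 603 FPKM in control libraries, above HNRNPA1 at 573, 507 and 565 in the same libraries. In miR-885-5p libraries HNRNPA2B1 had 443, 412 and 496 FPKM, below HNRNPA1 at 776, 643 and 764. In each library the difference within the pair had the direction of its group. In the CPM of the counts, which are not scaled by length, HNRNPA1 was the higher of the pair in all 6 libraries.

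A 7mer-m8 or 8mer site was found in the longest 3′ UTR of 8 of the 84 members with an annotated one (9.52%), and of 986 of 12308 genes overall (8.01%). They included SRSF6 and HNRNPA3, whose 8mers are printed above, and PRPF38A, PRPF38B, HNRNPU, HNRNPK and LSM11 with a 7mer-m8. All 8 fell, with a median of -0.27. Of the 76 members without these sites 44 (57.9%) fell, with a median of -0.19. Over all genes, 35.5% of those with a site and 27.2% of those with a 3′ UTR and no such site fell. The weaker 7mer-A1 match (TAATGGA) alone was present in 8 further members, also 9.52%, against 9.24% of all genes. The 8mer was in 2.38% of members and 2.53% of all genes. A match describes the letters only and does not show that the microRNA bound there. Of the 8, LSM11 lost its call in 14 alternatives.

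The short arm of chromosome 1 carried 8 members, taken as genes that start before the widest gap between tested genes, at or below position 121184810 (GRCh38). They were SRSF4, SRSF10, SRSF11, HNRNPR, SF3A3, PRPF38A, PRPF38B and LSM10. All 8 fell, with a median log2 fold change of -0.40. PRPF38A, for one, lies at chr1:52404564-52420839 on the plus strand, and HNRNPR at chr1:23303771-23344336 on the minus strand. Of all 694 genes on that arm, 55.8% fell and 11% rose (66.7% in all), with a median of -0.23, so most genes there were lower too. The part of this in the fall of the splicing genes was not tested. Away from the arm 44 of 78 members (56.4%) fell, with a median of -0.18, and away from chromosome 1 altogether 42 of 74 (56.8%). HNRNPAB and HNRNPH1, among the 5 largest falls, lie on chromosome 5, at chr5:178204507-178211163 (plus) and chr5:179614178-179634784 (minus).

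Promoter windows around the gene start in RefSeq (GRCh38.p14) were found for 73 of the 86 members. The letters CCGGAAG, the core that ETS factors such as GABPA bind, were present on either strand in 31.5% of them, against 19.7% of 9882 promoters of genes in the count table and 10.7% of all 27305 promoters. The genes of the SF3A trimer all had it close to their start, and are printed here because the 3 proteins work as 1 unit and all 3 genes fell, with the match in capitals in the gene's direction (CTTCCGG is the other strand).
SF3A1: ggacggtcCCGGAAGtgcgccag
SF3A2: catttgccCCGGAAGtgctttct
SF3A3: ccggggcaCTTCCGGcactcgcg
These lie at chr22:30356929-30356951 (minus), chr19:2236807-2236829 (plus) and chr1:37990076-37990098 (minus). SF3A3 has another match nearer its gene start, at chr1:37990000-37990022 (minus), which is not printed. The match was in 25.5% of the 47 members that fell and in 42.3% of the 26 others, a lower share among the former. The letters CCAAT were in 43.8% of members and 37% of genes in the count table, and CACGTG in 11% and 10.2%. Any of TTTCGCGC, TTTGGCGC and TTTCCCGC, which E2F factors bind, was in 6.85% and 4.51%. These motifs do not contain one another, each was searched on both strands, and a match is no evidence of binding.

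Of 174 tested splicing genes in 6 further lists, 96 (55.2%) fell and 13 (7.47%) rose, beside 26.5% and 26.3% of all genes, with a median of -0.18. The share that fell ran from 16.7% in the minor spliceosome to 65.3% in the other splicing regulators. Among other core spliceosome genes 26 of 48 (54.2%) fell and 4 rose. Those that fell included SNRNP70, the U1 protein of the same particle as SNRPA (log2 -0.47, SE 0.04), SNRNP40 of U5 (-0.59, SE 0.05), the helicase DDX46 (-0.43, SE 0.04) and the U5 GTPase EFTUD2 (-0.39, SE 0.04). CDC40 (0.39, SE 0.08), SYF2 (0.25, SE 0.05), RBMX2 (0.24, SE 0.06) and SMNDC1 (0.18, SE 0.05) rose. Of 30 SR kinases and SR-related coactivators 18 fell and 4 rose. Those that fell included TRA2B (-0.61, SE 0.05) and TRA2A (-0.48, SE 0.06), which act with SR proteins on exonic enhancers, LUC7L3 of U1 (-0.58, SE 0.05) and the coactivator SRRM1 (-0.58, SE 0.08). The SR protein kinases SRPK2 (0.31, SE 0.05) and CLK1 (0.24, SE 0.07) rose, as did SCAF8 (0.27, SE 0.05) and the kinase DYRK1A (0.16, SE 0.06).

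Of 22 genes for snRNP assembly and Cajal bodies 11 fell and 1 rose. WDR77, a partner of the enzyme that methylates Sm proteins (-0.70, SE 0.05), GEMIN5, which delivers small nuclear RNA to the SMN complex (-0.44, SE 0.05), and the snoRNP proteins NOP56 (-0.47, SE 0.04) and NOP58 (-0.34, SE 0.04) fell. GEMIN8 of the SMN complex rose (0.64, SE 0.12), with 7.80, 8.33 and 10.3 CPM in control and 12.6, 15.3 and 13.3 in miR-885-5p libraries. Of 49 other splicing regulators 32 (65.3%) fell and 3 rose. SFPQ (-0.55, SE 0.05), PTBP3 (-0.45, SE 0.04), TARDBP (-0.42, SE 0.04) and SYNCRIP, the relative of HNRNPR (-0.38, SE 0.04), were among those that fell. The change furthest from 0 in this list was a rise, that of KHDRBS3 (0.68, SE 0.10) from 9.04 ± 0.698 to 14.4 ± 1.52 CPM. TIA1 (0.22, SE 0.05) and PCBP2 (0.20, SE 0.03) also rose. Of 13 genes of the exon junction complex and nonsense-mediated decay 7 (53.8%) fell and 0 rose, among them UPF3B (-0.83, SE 0.05), EIF4A3 (-0.54, SE 0.05), UPF1 (-0.49, SE 0.05) and SMG5 (-0.38, SE 0.04). Of 12 genes of the minor spliceosome, which removes a rare class of introns, 2 (16.7%) fell and 1 (8.33%) rose, with a median of -0.03. Over all genes 26.5% fell, and whether the share of these 12 genes differs was not tested. ARMC7 (-0.56, SE 0.07) and SNRNP25 (-0.54, SE 0.06) fell and SCNM1 (0.18, SE 0.06) rose. In these lists the genes that rose were named after their values were seen. Values in brackets are log2 fold changes, and all these calls are from the same edgeR fit.

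In the authors' deposited table, 56 members had a p-value under 0.05 with a log2 fold change below 0 and 5 with one above 0, against 28.8% of all genes in each direction. The sign differed from the edgeR fit for 0 of the 86 members.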

How the data were processed

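RNA-seq covered 6 libraries of JHH-4 cells, grouped and numbered by their titles. Tools listed in the submitters' processing notes are HISAT2 2.0.4, StringTie 2.2.1 and DESeq2 1.38.3, beside the build GRCh38, without roles. A counting tool, annotation release or strand setting was not given in the sources used here. Reads of overlapping genes on opposite strands therefore cannot be told apart. Per the file headers, the authors deposited a raw count and an FPKM value per gene and library. Per the file headers they also deposited a p-value and log2 fold change per gene, naming no test. All 12420 Ensembl IDs among the 14034 rows were found in GENCODE 29, which gave positions and 3′ UTRs.

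The main test was edgeR 4.0.16 (R 4.3.3), a quasi-likelihood F test on TMM-scaled counts of every row, since filterByExpr removed 0. P-values were adjusted by Benjamini-Hochberg over the whole table, with calls under 0.05. Total counts were 46382314 to 56409821 and TMM factors 0.976 to 1.02. Replicates differed by more than sampling noise (chi-square per degree of freedom 7.95 to 40.5). Levels are TMM-scaled CPM, mean ± SD. The members and gene lists were chosen with earlier results of these data known.

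Genes were named by rule: all SR proteins; per other class the 6 called members with the largest change, the most abundant and the least changed; members with a seed site or on the short arm of chromosome 1; related pairs; and, per further list, the 4 called genes with the smallest adjusted p. The genes of those lists that rose were added after their values were seen. The other 19 members were named to account for the rest, and the values of 1 member are not reported here, though it is in the counts. List genes whose symbol stands on several rows were left out.

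Alternatives were DESeq2 1.42.0, limma-voom, limma on log2 FPKM (limma 3.58.1, pseudocounts 1 and 0.1), 3 other scalings, filters at none, 1 and 5 CPM, a replicate block, a test against a 1.2-fold change, the members off chromosome 1 and leaving out each library. Subsets by level (20 CPM), by the short arm of chromosome 1 and by shared reads were added after the data were seen.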

Additional observations from a re-analysis of the deposited data

How the results depend on the processing

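With DESeq2, limma-voom, RLE, upper-quartile and total-count scaling, and filters at none, 1 and 5 CPM, the number of members called lower stayed between 41 and 52 and the number called higher between 5 and 7. Over the same settings 22.3 to 28.5% of all genes were lower. Total-count scaling gave 41 members lower and 7 higher, beside 3134 (22.3%) of all 14034 genes lower and 4357 higher. Over the 18 settings that test against 0, the main one included, 36 members were called lower in each, and HNRNPA1 and HNRNPLL higher in each. Of these settings, no filter and the filter at 1 CPM kept the same 14034 genes as the main fit, so they only repeat it. Against a 1.2-fold change, by construction a stricter test, 22 members were lower and 0 higher. The same test called 1632 of all genes lower and 1665 higher, 5 SR genes lower, 8 hnRNPs lower and 0 higher, and 7 core snRNP genes lower and 0 higher. In limma on log2 FPKM with either pseudocount, 37 members (43.0%) fell, 9 of them hnRNPs, and 6 rose. Of all genes 19.1% then fell and, at pseudocount 1, 27.0% rose, and the cause was not tested. Among the calls lost at both pseudocounts were those of LSM2, SF3A2, SRSF3, HNRNPA0, SNRPG and PRPF4. The calls of SRSF3, HNRNPA0, SNRPG and PRPF4 were also lost with total-count scaling. With 1 library left out, 41 to 55 members were lower and 3 to 6 higher. Core snRNP genes were lower in 14 (without control library 1) to 23 and higher in 0 to 3, hnRNPs lower in 12 to 17 and higher in 2 to 4, and SR genes lower in 8 to 10. Of all genes 3182 to 3864 were lower and 3101 to 3814 higher. Off chromosome 1, 42 members were lower, off its short arm 44, and 51 without the 3 that share reads with another member.

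Log2 fold changes changed sign only for members that were not called, and the cause was not tested. In limma at pseudocounts 1 and 0.1, HNRNPDL had 0.028 and 0.028, PRPF6 0.030 and 0.030, PRPF8 0.0018 and 0.0019, SF3B3 0.030 and 0.031, and U2AF1L4 0.083 and 0.097. Total-count scaling gave 0.019 for PRPF6, 0.034 for SF3B3 and 0.030 for U2AF1L4, and limma-voom gave 0.0051 for U2AF1L4. With 1 library left out, the ranges were -0.027 to 0.15 for LSM7, -0.0095 to 0.071 for LSM8, -0.026 to 0.056 for PRPF39, -0.35 to 0.015 for PRPF40B, -0.030 to 0.0095 for SF3B3, -0.10 to 0.14 for SNRPB, -0.096 to 0.014 for SNRPB2, -0.024 to 0.12 for SRSF8 and -0.18 to 0.12 for U2AF1L4.

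With the replicate number as a block, 43 members were lower and 5 higher, beside 3366 and 3329 of all genes. Deviations of same-numbered libraries correlated at -0.18, -0.06 and -0.15, and none correlated best with its own number, so the numbers give no sign of pairing. Of the 6 members under 20 CPM, 1 was called (16.7%), beside 52.9% of all genes tested, whatever their level. Whether a low level limited the precision for these members was not tested.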

Other observations

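The deposited table gives both a count and an FPKM value for each gene and library, and their ratio reflects the message length that the authors' software assumed. This ratio was compared between the groups with limma after the data had been seen, as a description of whether transcript lengths moved. Of 13077 genes with at least 50 counts in each library, 0 passed an adjusted p of 0.05 in limma, and 1279 (9.78%) had an unadjusted p under 0.05. Among the 86 splicing genes, 0 passed and 12 of the 86 had an unadjusted p under 0.05 in limma. The largest difference among them was a log2 value of -0.16 (SE 0.07) for HNRNPA1, whose counts rose less than its FPKM.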
